A study of Danio rerio with 32 samples.

Results

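The genes described here encode the receptors for glutamate and GABA in the eyes and brains of young zebrafish. They were chosen by name: protein-coding genes whose symbol begins as those of the AMPA, kainate, delta, NMDA and metabotropic glutamate receptors or of the GABA-A and GABA-B receptors, with at least 1 FPKM (fragments per kilobase of gene length, scaled to the library's size) in at least 4 libraries of one tissue. The pattern matched 62 genes, and 60 of them passed the level filter, out of 32520 genes in the table and 19170 that passed the same filter. In eyes 55 members passed, in brains 55, and 50 passed in both tissues. The matches that fell short were gria1a, whose highest brain library had 0.678 FPKM, and grm1b, whose highest had 1.36 FPKM. Just past the filter were grin3bb and grid1a, whose highest brain libraries had 2.01 and 1.66 FPKM. Among the 60 are 2 genes, grid2ipa and grid2ipb, that encode proteins interacting with the delta receptor and are not receptors themselves.

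The animals were wild type. From 0.75 hours post fertilization (hpf) until 120 hpf the exposed groups were held in 12.5 µM PFNA, or perfluorononanoic acid, one of the persistent perfluoroalkyl substances. The control groups received 0 µM and are called DMSO below, after the solvent, which all groups received at 0.1%. Rearing was either in constant darkness (DD, 24 h dark per day) or with a daily 14 h light phase and 10 h dark phase (LD), and eyes and brains, which the labels call embryonic, were then dissected and sequenced as separate libraries. This gave 8 groups of 4 libraries: eye DD PFNA, eye DD DMSO, eye LD PFNA, eye LD DMSO and the same 4 in brain. The series' design text names PFHxS in place of PFNA at the same concentration, and the sample labels, followed here, name PFNA. The labels state neither the number of animals per library nor separate clutches for the replicates. P-values therefore reflect only how these libraries vary, which may be technical.

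Glutamate is the main excitatory transmitter of the vertebrate nervous system. AMPA, kainate and NMDA receptors are cation channels assembled from several subunits each, while the metabotropic (mGlu) receptors act through G proteins. GABA is the main inhibitory transmitter. GABA-A receptors are chloride channels of several subunits, the rho subunits form GABA-gated channels that are best known from the retina, and GABA-B receptors are pairs of G protein-coupled subunits. In the retina, photoreceptors and bipolar cells release glutamate, and ON bipolar cells sense it through mGlu6. The teleost genome duplication left many of these genes as an a and a b copy.

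The 32 libraries held between 8825300 and 16132618 assigned fragments, and between 15446 and 17116 genes reached 1 FPKM. The tissue labels held against markers: in LD DMSO libraries all 7 tested rod genes, all 8 cone genes and all 7 lens genes were higher in eye, and all 7 myelin genes were lower in eye. One library did not match its label. The library labelled brain DD PFNA replicate 3 had 1282.91 FPKM of rho, the rod opsin. The 15 remaining brains had at most 7.74 FPKM of it, and eyes had 1160.79 to 3592.55 FPKM. For 52 of the 60 members its value lay outside the range of the other brain libraries, and for 43 it lay outside that range and inside the range of eyes. It had 115.3 FPKM of gabrr2a and 14.25 FPKM of gabra6a, for example. It was left out of all tests below, which leaves brain DD PFNA with 3 libraries. Results with it are given for the calls of DD against LD in brains and for some comparisons between the tissues. Within eyes, DD PFNA replicate 4 held the lowest value of all 16 libraries for 30 of the 55 members and had the highest mitochondrial share of fragments, 10.01%. Within brains, DD DMSO replicate 2 was lowest for 19 of 55.

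**Figure D1:**
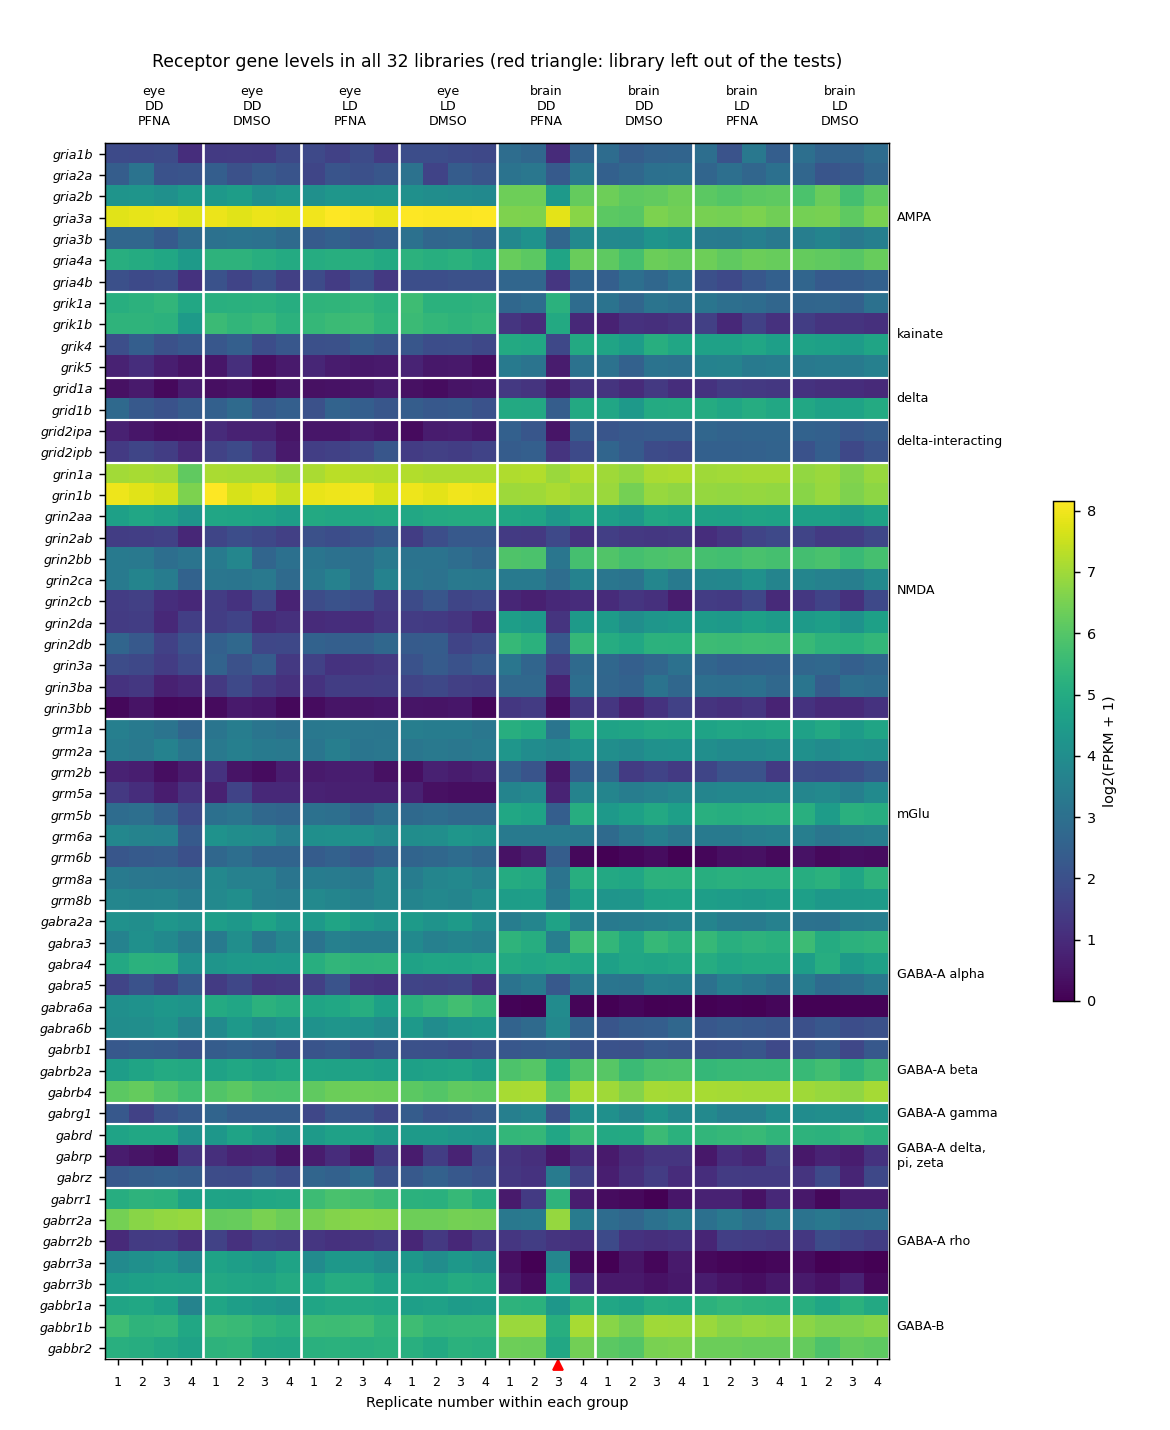
Level of 57 receptor genes as log2(FPKM + 1) in all 32 libraries, with libraries as columns grouped by tissue, photoperiod and exposure and genes as rows grouped by receptor family. The brain DD PFNA library marked with a red triangle carries the eye pattern for the rho genes, grik1b and gria3a.

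The main division among the receptor genes was between eye and brain. In the unexposed LD groups, 53 of 60 members differed between the tissues, 17 higher and 36 lower in eye (limma on log2(FPKM + 1), Benjamini-Hochberg adjusted p under 0.05, as for every call below). Over all genes tested 48.5% were called in this comparison, 24.5% higher and 24.1% lower. The 10 members that passed the level filter in one tissue only had to differ. In eyes only these were gabra6a, gabrr1, gabrr3a, gabrr3b and grm6b. In brains only they were grik5, grm2b, grid1a, grid2ipa and grin3bb. Among the 50 that passed in both, 43 were called (12 higher and 31 lower in eye), which is 86%, beside 47.1% of the 16250 genes that passed in both. The median log2 difference, eye minus brain, was -0.52 for the 60 members and 0.02 for all genes tested. Neuron marker genes were lower in eye too: 12 of them summed to 1059 to 1112 FPKM in LD DMSO eyes and 1585 to 2326 FPKM in LD DMSO brains. Their part in the receptor differences was not tested. Of the 24 GABA receptor genes 9 were higher and 11 lower in eye, and of the 36 on the glutamate side 8 were higher and 25 lower. In these bulk libraries fewer cells of a type and less RNA per cell cannot be told apart, here and in every comparison below.

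**Figure D2:**
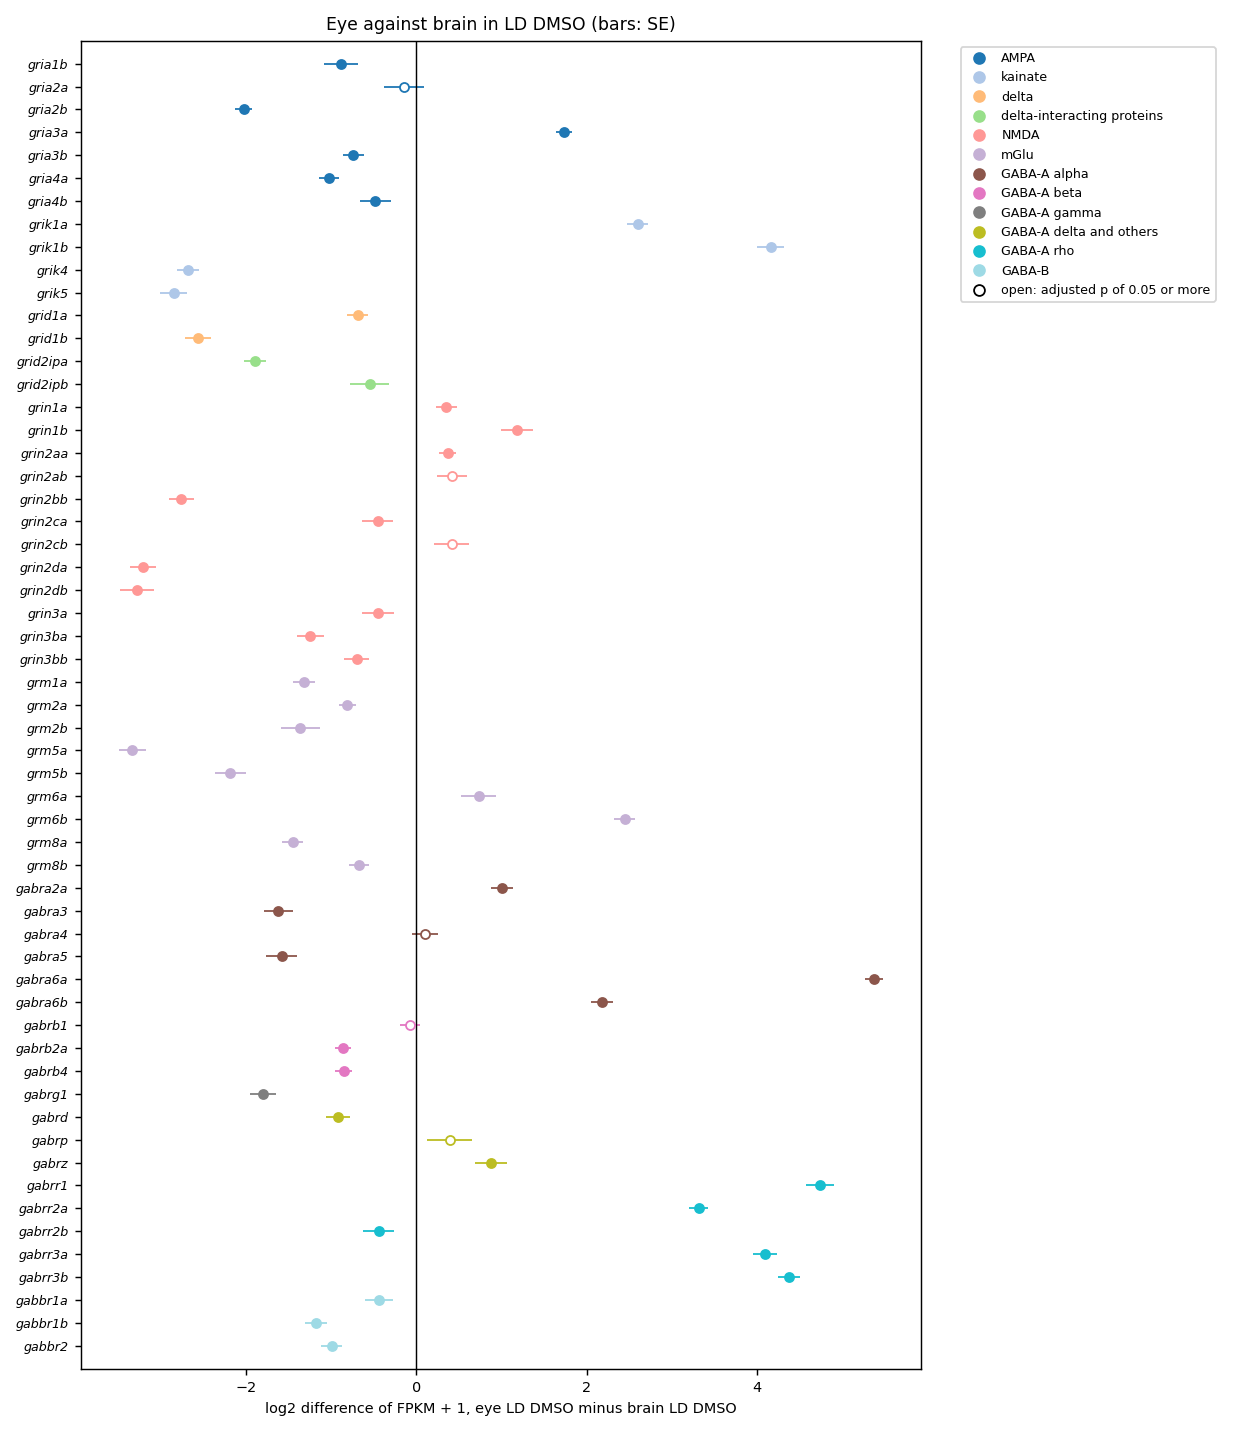
Log2 difference of FPKM + 1, eye LD DMSO minus brain LD DMSO, for each of 57 genes, with bars of 1 SE and colours for the receptor family (open points have an adjusted p of 0.05 or more). Points run between -3.34 for grm5a and 5.38 for gabra6a, and 4 of the 5 rho genes lie far to the right.

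AMPA receptors carry fast excitatory transmission, and their subunit makeup differed between the tissues. The 7 AMPA genes summed to 345.6 ± 10.2 FPKM in LD DMSO eyes and 245.4 ± 26.1 FPKM in LD DMSO brains (SD, n = 4 each). In eyes gria3a, which encodes GluA3, made up 81.1 ± 1.33% of that sum, against 34.2 ± 0.914% in brains. Its level was 286, 275.5, 279.3 and 280.2 FPKM in the eyes, against 86.8, 89.2, 69.0 and 90.9 FPKM in the brains, so the lowest eye stood well above the highest brain (log2 difference 1.74, SE 0.10, adjusted p = 5.31e-15). It was the most abundant of the 60 genes in eye. The copy gria3b went the other way, with a mean of 5.81 FPKM in eyes and 10.4 FPKM in brains (-0.74, SE 0.12, adjusted p = 1.19e-05). The other called AMPA genes were lower in eye too. For gria2b, which encodes GluA2, the subunit whose edited form keeps calcium out of the channel, the values were 16.2, 14.9, 14.4 and 13.6 FPKM in eyes and 56.5, 78.1, 52.4 and 69.8 FPKM in brains (-2.03, SE 0.10). Its share of the AMPA sum was 4.28% in eyes and 26.1% in brains. The share of gria4a, for GluA4, was 10.1% in eyes and 29.4% in brains. The other called members, gria1b and gria4b, differed by -0.89 and -0.48, and gria2a was not called (-0.15, adjusted p = 0.632).

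The kainate receptor genes split by subunit. In eyes grik1a and grik1b, the copies for GluK1, which forms channels on its own, made up 46.4% and 49.6% of the summed level of the 4 members, against 13.9% and 3.48% in brains. The level of grik1b was 46.4, 41.9, 38.9 and 41.1 FPKM in eyes and 1.79, 1.36, 1.32 and 1.17 FPKM in brains, a 29.8-fold higher mean in eye. In brains grik4 and grik5, for the high-affinity subunits GluK4 and GluK5 that work only together with others, made up 59.07% and 23.5% of that sum, against 3.45% and 0.549% in eyes. The level of grik4 averaged 2.94 ± 0.477 FPKM in eyes and 24.1 ± 1.93 FPKM in brains (SD, n = 4 each; log2 difference -2.68, SE 0.13). All 4 were called, 2 in each direction, and the tissues did not overlap for any of them. The gene grik5 passed the level filter in brains only, so it had to differ. The sums leave out GRIK2 and GRIK3, whose symbols are in capitals in the files and so fell outside the name pattern. These were the most abundant kainate receptor genes in brains, with means of 11.1 FPKM in eyes and 51.4 FPKM in brains for GRIK2, and of 13.0 FPKM in eyes and 49.7 FPKM in brains for GRIK3. With both put into the sum, grik1a and grik1b made up 36.2% and 38.6% in eyes, against 4.02% and 0.996% in brains. The shares of grik4 and grik5 were then 2.68% and 0.429% in eyes, against 17.0% and 6.78% in brains, where GRIK2 and GRIK3 made up 36.2% and 35.03%.

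Delta receptors are relatives of these channels that organize synapses and are best known from cerebellar Purkinje cells. Both members were lower in eye, grid1b by -2.57 (SE 0.15, means 3.78 FPKM in eyes and 27.4 FPKM in brains) and grid1a by -0.69. The genes for the interacting proteins were lower as well, grid2ipa by -1.90 and grid2ipb by -0.55 (adjusted p = 0.0473). The call of grid2ipb was lost in 20 of 39 settings, with an adjusted p of up to 0.153. Among these were the fits without any single eye LD DMSO library and the fit with the left-out brain library put back. Since grid1a and grid2ipa passed the level filter in brains only, they had to differ.

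NMDA receptors need the GluN1 subunit, joined by GluN2 or GluN3 subunits that set their kinetics. The GluN1 genes grin1a and grin1b were higher in eye while most of their partners were lower. Summed GluN1 level was 386 ± 13.1 FPKM in eyes and 219.7 ± 19.7 FPKM in brains, and summed GluN2 level 56.2 ± 1.59 FPKM in eyes and 151.7 ± 13.0 FPKM in brains (SD, n = 4 each). The copy grin1b had 247.5, 228, 251.8 and 240.7 FPKM in eyes, against 103.1, 119.4, 94.2 and 109.2 FPKM in brains (1.18, SE 0.18, adjusted p = 3.96e-06). The makeup of the GluN2 set also differed. In eyes grin2aa, for GluN2A, the subunit that dominates at mature synapses in mammals, made up 54.6 ± 2.04% of it, against 15.6 ± 0.185% in brains. In brains grin2bb, for GluN2B, made up 34.0% and the GluN2D genes grin2da and grin2db 14.0% and 26.2%, against 12.08%, 2.49% and 5.82% in eyes. This sum leaves out GRIN2B (1 of many), a further GluN2B gene outside the name pattern. With it put in, both GluN2B genes together made up 16.7% in eyes and 44.5% in brains, and grin2aa made up 51.7% in eyes and 13.1% in brains. The level of grin2db was 4.03, 4.22, 2.17 and 2.64 FPKM in eyes and 44.7, 37.6, 35.8 and 41.0 FPKM in brains. The means of both GluN2D copies were at least 10-fold lower in eye, with log2 differences of -3.22 for grin2da and -3.28 for grin2db. The call of grin1a (0.35, adjusted p = 0.0221) was lost with quantile scaling (0.322) and without eye LD DMSO replicate 1 or brain LD DMSO replicate 3. The 3 GluN3 genes grin3a, grin3ba and grin3bb differed by -0.45, -1.25 and -0.70. Of these, grin3bb passed the level filter in brains only, so it had to differ. The call of grin3a (adjusted p = 0.0434) was lost in 8 of 39 settings, with an adjusted p of up to 0.135. Among them were the fits without eye LD DMSO replicates 1 or 3 or brain LD DMSO replicates 1, 2 or 4. The fit with the left-out brain library put back was another. The genes grin2ab and grin2cb were not called (adjusted p = 0.0509 and 0.100).

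Among the metabotropic glutamate receptors, the pair for mGlu6 was higher in eye and the other 7 members were lower. The copy grm6b, for the receptor by which ON bipolar cells sense photoreceptor glutamate, had 5.20, 5.68, 6.36 and 5.55 FPKM in eyes and 0.311, 0.163, 0.236 and 0.200 FPKM in brains (2.45, SE 0.12, adjusted p = 3.35e-16). It passed the level filter in eyes only, so it had to differ. Its copy grm6a was not confined to the eye: it averaged 16.6 ± 1.60 FPKM in eyes and 9.61 ± 1.02 FPKM in brains (SD, n = 4 each; 0.73, SE 0.21, adjusted p = 0.00425). At the other end stood grm5a, for mGlu5, which couples to calcium release from internal stores. It had 0.672, 0.284, 0.227 and 0.229 FPKM in eyes and 12.5, 13.4, 10.6 and 13.9 FPKM in brains, a mean 35.7-fold lower in eye (-3.34, SE 0.16). Its copy grm5b was also lower (-2.19), with 5.96 ± 0.316 FPKM in eyes and 31.2 ± 6.42 FPKM in brains (SD, n = 4 each). The rest, grm1a, grm2a, grm2b, grm8a and grm8b, differed by between -1.45 and -0.67. Of these, grm2b passed the level filter in brains only, so it had to differ.

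GABA-A receptors are built mostly from alpha, beta and gamma subunits. The 7 alpha genes reached similar sums, 198 ± 6.23 FPKM in eyes and 188 ± 11.8 FPKM in brains, with different makeup. In eyes gabra6a made up 21.6% of the sum, against 0.0253% in brains. In mammals the alpha-6 subunit is known chiefly from cerebellar granule cells. In these larvae gabra6a (ENSDARG00000075058) had 36, 42.3, 50.2 and 42.5 FPKM in LD DMSO eyes and 0.0416, 0.0358, 0.0518 and 0.0615 FPKM in LD DMSO brains, a mean 897-fold higher in eye (log2 difference 5.38, SE 0.11, adjusted p = 3.8e-25). The gene passed the level filter in eyes only, so it had to differ. Its brain mean of 0.0477 FPKM stands for few fragments, which makes the fold value uncertain. The summed level of 7 cerebellum and granule cell genes lay between 240.8 and 352.7 FPKM in the 15 brain libraries. In eyes it lay between 106.6 and 214.5 FPKM, so these genes do not mark cerebellum alone. In none of the 15 brain libraries did gabra6a exceed 0.113 FPKM. Its copy gabra6b was higher in eye by a smaller margin, 17.7 ± 2.23 FPKM in eyes and 3.12 ± 0.366 FPKM in brains (SD, n = 4 each; 2.18, SE 0.13). The gene gabra2a was also higher in eye (1.008), gabra3 and gabra5 were lower (-1.62 and -1.58), and gabra4 was not called (0.10, adjusted p = 0.632). The alpha sums leave out GABRA2, which fell outside the name pattern. Unlike gabra2a it was lower in eye (-1.35), with means of 15.3 FPKM in eyes and 40.9 FPKM in brains. With GABRA2 put in, the alpha sum was 213 ± 4.88 FPKM in eyes and 229 ± 17.1 FPKM in brains (SD, n = 4 each). The mean sum was then higher in brains.

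The beta, gamma and delta subunit genes moved less. Of the beta genes, gabrb4 was the most abundant in both tissues, with 67.4 ± 3.58 FPKM in eyes and 122.8 ± 9.60 FPKM in brains (SD, n = 4 each; -0.85). The gene gabrb2a differed by about as much (-0.86). The labels describe both a strand-marking and a non-marking preparation, so reads of genes that overlap on opposite strands cannot be told apart with certainty, which concerns gabra5. The gamma subunit gene gabrg1 was lower in eye (-1.81, SE 0.15, adjusted p = 4.57e-11). The gene gabrd, for the delta subunit of extrasynaptic receptors, was lower (-0.93), gabrz was higher (0.87) and gabrp was not called (0.39, adjusted p = 0.231).

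The rho subunit genes were, with 1 exception, far higher in eye. Together the 5 members came to 168 ± 10.4 FPKM, or 28.0 ± 1.0% of the summed level of the 21 GABA-A members in eyes, against 10.5 ± 0.990 FPKM and 2.05 ± 0.246% in brains (SD, n = 4 each). With GABRR1 (1 of many), GABRA2 and GABRB2 (1 of many), which fell outside the name pattern, put in, the rho share was 29.3% in eyes and 2.25% in brains. Most abundant was gabrr2a (ENSDARG00000052982), with 80.5, 81.3, 87.5 and 85.7 FPKM in eyes and 7.60, 8.75, 6.81 and 7 FPKM in brains (3.32, SE 0.11). Next came gabrr1 (ENSDARG00000043902), with 35.9, 35.1, 43.6 and 33.7 FPKM in eyes and 0.425, 0.133, 0.577 and 0.571 FPKM in brains (4.74, SE 0.16). The copies gabrr3b and gabrr3a differed by 4.38 and 4.1, and gabrr3a (ENSDARG00000027153) was listed at 0 in 2 of the 4 LD DMSO brains. The genes gabrr1, gabrr3a and gabrr3b passed the level filter in eyes only, so they had to differ. The exception was gabrr2b, lower in eye at 1.21 ± 0.396 FPKM in eyes and 2.01 ± 0.505 FPKM in brains (SD, n = 4 each; -0.44, adjusted p = 0.0414).

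All 3 GABA-B receptor genes were lower in eye. They summed to 100.4 ± 4.54 FPKM in eyes and 200.1 ± 13.5 FPKM in brains (SD, n = 4 each). The receptor is a pair of a ligand-binding subunit, here gabbr1a and gabbr1b, and a signalling subunit, gabbr2. The difference was -0.44 for gabbr1a (adjusted p = 0.0253), -1.18 for gabbr1b and -0.997 for gabbr2. The call of gabbr1a was lost without eye LD DMSO replicate 3 or brain LD DMSO replicates 1 or 3. It was also lost with the left-out brain library put back, and its highest adjusted p over the settings tried was 0.0785. The share of gabbr2 in the sum was nearly equal, 33.9% in eyes and 34.4% in brains.

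**Figure D3:**
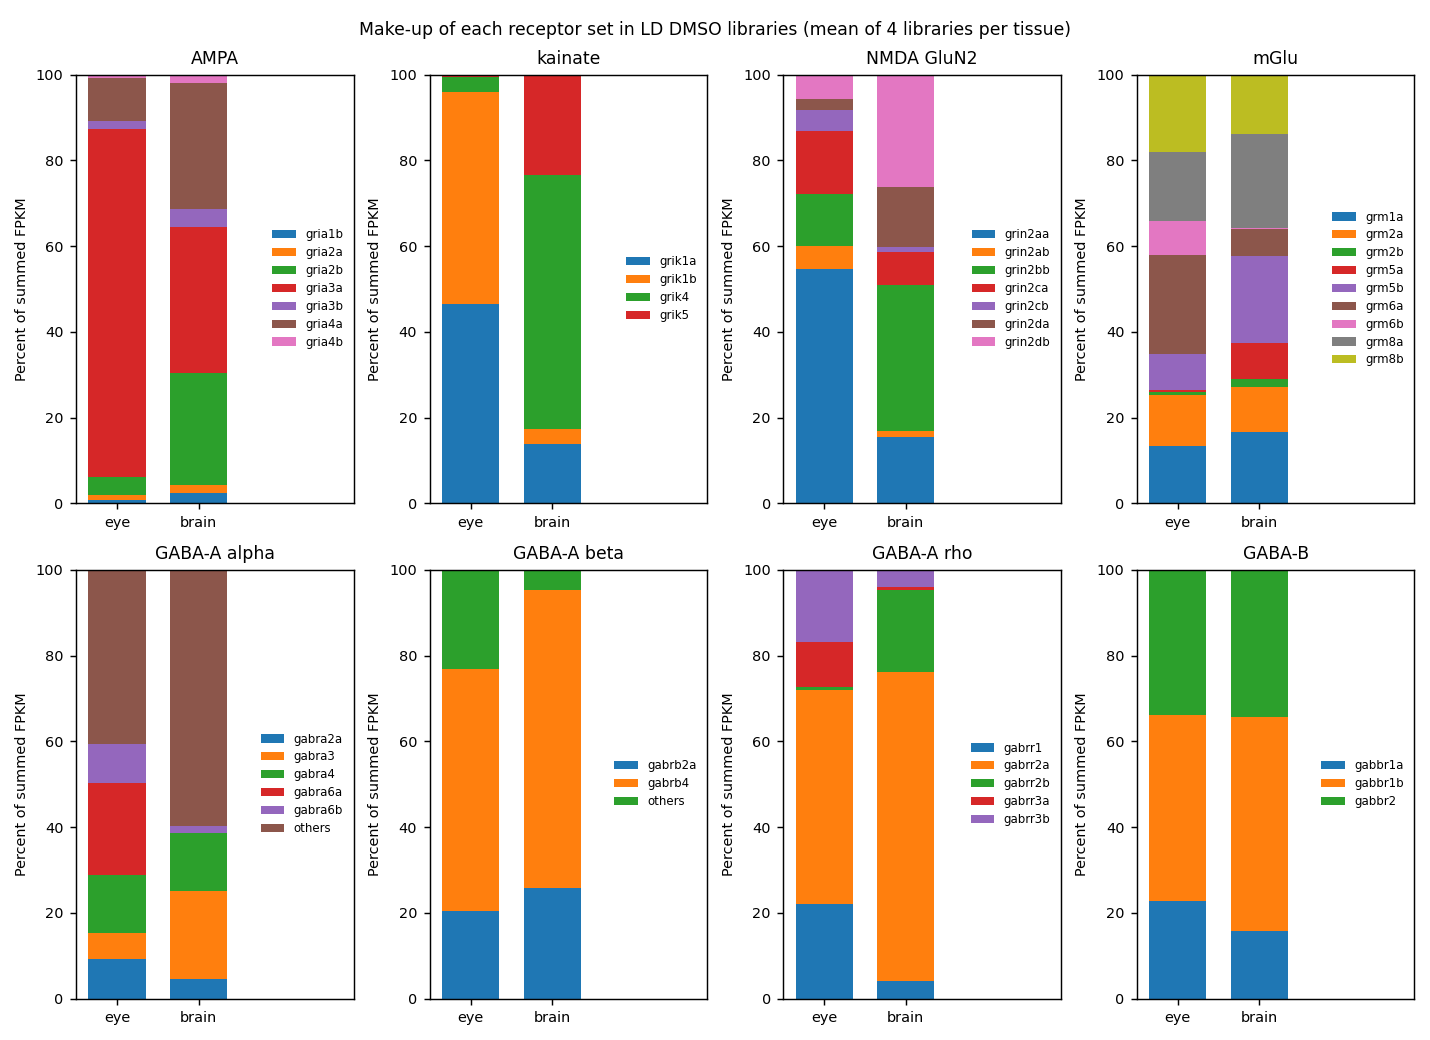
Stacked shares, in percent of summed FPKM, of the members found by name within 8 receptor sets in LD DMSO eyes (left bar of each pair) and brains (right bar), as means of 4 libraries, with some genes drawn together as others. The gria3a share of the AMPA set is 81.1% in eyes and 34.2% in brains, and gabra6a takes 21.6% of the alpha set in eyes and 0.0253% in brains.

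Where both copies of a duplicate pair were called, they mostly went the same way. Of the 19 pairs of copies among the members, both copies were called in 16, with 5 pairs higher, 9 pairs lower and 2 pairs in opposite directions. Some of these copies had to differ, since they passed the level filter in one tissue only. They were gabra6a, gabrr3a, gabrr3b, grm6b, grid1a, grid2ipa, grm2b and grin3bb. Among all 60 members 17 were higher and 36 lower in eye, so some agreement between copies would come from that balance alone. The opposite pairs were gabrr2a and gabrr2b (3.32 and -0.44) and gria3a and gria3b (1.74 and -0.74). The call of gabrr2b lay near the threshold (adjusted p = 0.0414), at means of 1.21 FPKM in eyes and 2.01 FPKM in brains. Whether it held in the alternative settings is not given. Within pairs of one direction the size could still differ, as for gabra6a and gabra6b (5.38 and 2.18), or be nearly equal, as for grin2da and grin2db.

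Members that lie side by side on a chromosome could differ in their tissue pattern. The members lie on 20 chromosomes, and 11 pairs of them lie within 500 kb of each other. On chromosome 14, in the coordinates of the authors' table, whose genome build is not given in the sources used here, gabra6a (22152060 to 22168786, plus strand) lies 3.261 kb before gabrb2a (22172047 to 22273847, plus strand), with differences of 5.38 and -0.86. On chromosome 20, gabrr1 (1132092 to 1151265, minus strand) lies 7.128 kb from gabrr2b (1158393 to 1176631, minus strand), with 4.74 and -0.44. These pairs are examples from the 11. In each, the gene higher in eye, gabra6a or gabrr1, passed the level filter in eyes only and so had to differ.

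Receptor genes that the name pattern missed, 10 in number and collected after the table's names had been seen, were mostly lower in eye. These were 9 lower and 1 higher. The higher one is listed as GABRR1 (1 of many), a further rho gene, with 23.4, 29.7, 27.6 and 25.7 FPKM in eyes and 3.65, 2.47, 3.19 and 2.58 FPKM in brains (2.80). Among the lower were GRIN2B (1 of many) with -2.85, GRIK2 with -2.12 and GRIK3 with -1.85.

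In eyes under LD, 3 of the 55 members tested differed between PFNA and DMSO, 1 higher and 2 lower, which is 5.45% of members, beside 10.7% of all genes tested (7.05% higher and 3.7% lower). The receptor genes as a group were thus called no more often than other genes, and what follows concerns single genes. The gene gabra6a had 26.3, 28.2, 33.0 and 24.1 FPKM in LD PFNA eyes, against 36, 42.3, 50.2 and 42.5 FPKM in LD DMSO eyes, with no overlap between the groups (log2 difference -0.60, SE 0.12, adjusted p = 0.0045). The gene grin3a, for a GluN3 subunit that lowers calcium entry, had 1.97, 1.30, 1.36 and 1.54 FPKM with PFNA, against 3.16, 4.09, 3.20 and 3.96 FPKM with DMSO (-0.86, SE 0.22, adjusted p = 0.0179). The gene gabrr1 was higher with PFNA, at 47.1, 55.0, 52.2 and 46.0 FPKM, against 35.9, 35.1, 43.6 and 33.7 FPKM with DMSO (0.43, SE 0.13, adjusted p = 0.0415). The exposed and control libraries did not overlap for these genes either. The call of gabra6a held in all 23 alternative settings. That of grin3a was lost without LD DMSO replicate 2 (adjusted p = 0.0552) or LD PFNA replicate 2 (0.0511). That of gabrr1 was lost in 13 settings (adjusted p 0.0509 to 0.113), among them without DD DMSO replicates 1, 2 or 3, LD DMSO replicates 1, 2 or 4, or any LD PFNA replicate. Without eye DD PFNA replicate 4, which is in neither group but enters the shared estimate of spread, 5 members were called.

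In eyes under DD, 5 of 55 members differed between PFNA and DMSO, 1 higher and 4 lower, or 9.09% of members beside 10.9% of all genes (6.54% higher and 4.36% lower). The gene gabra6a was lower again, with 15.9, 17.1, 18.8 and 17.9 FPKM in DD PFNA eyes, against 30.5, 27.8, 37.0 and 33.1 FPKM in DD DMSO eyes (-0.84, SE 0.12, adjusted p = 0.000311). The groups were far apart, with the highest exposed library well below the lowest control. The rho gene gabrr3a had 14.0, 16.1, 18.3 and 12.8 FPKM with PFNA, against 25.7, 22.9, 20.4 and 25.6 FPKM with DMSO (-0.60, SE 0.13, adjusted p = 0.00918). For grm6b, the less abundant mGlu6 copy in eyes, the values were 3.52, 4.003, 4.15 and 2.97 FPKM with PFNA and 5.63, 6.81, 5.21 and 5.22 FPKM with DMSO (-0.53, SE 0.12, adjusted p = 0.0118). The groups did not overlap for gabrr3a or for grm6b. The more abundant mGlu6 copy, grm6a, was not called. The gene gabrr2a was higher, at 87.4, 103.1, 112.6 and 117.8 FPKM with PFNA and 73.8, 76.6, 91.0 and 79.5 FPKM with DMSO, where the lowest exposed library lies below the highest control (0.38, SE 0.10, adjusted p = 0.0225). So 2 rho genes, gabrr2a and gabrr3a, went in opposite directions in the same eyes.

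Eye DD PFNA replicate 4 belongs to the exposed group of this comparison. Without it 8 members were called, 4 higher and 4 lower, and the differences were -0.85 for gabra6a (adjusted p = 0.000394), -0.53 for gabrr3a (0.0164), -0.45 for grm6b (0.0201) and 0.33 for gabrr2a (0.0293). The call of gabrr2a was lost without DD DMSO replicates 1 (0.0731), 2 (0.0638) or 4 (0.0506) or DD PFNA replicate 3 (0.0650). It was also lost with quantile scaling and with only the 2 compared groups. Over the 23 settings its difference fell as low as 0.19 and its adjusted p reached 0.148. The call of grm6b was lost with only the 2 compared groups.

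**Figure D4:**
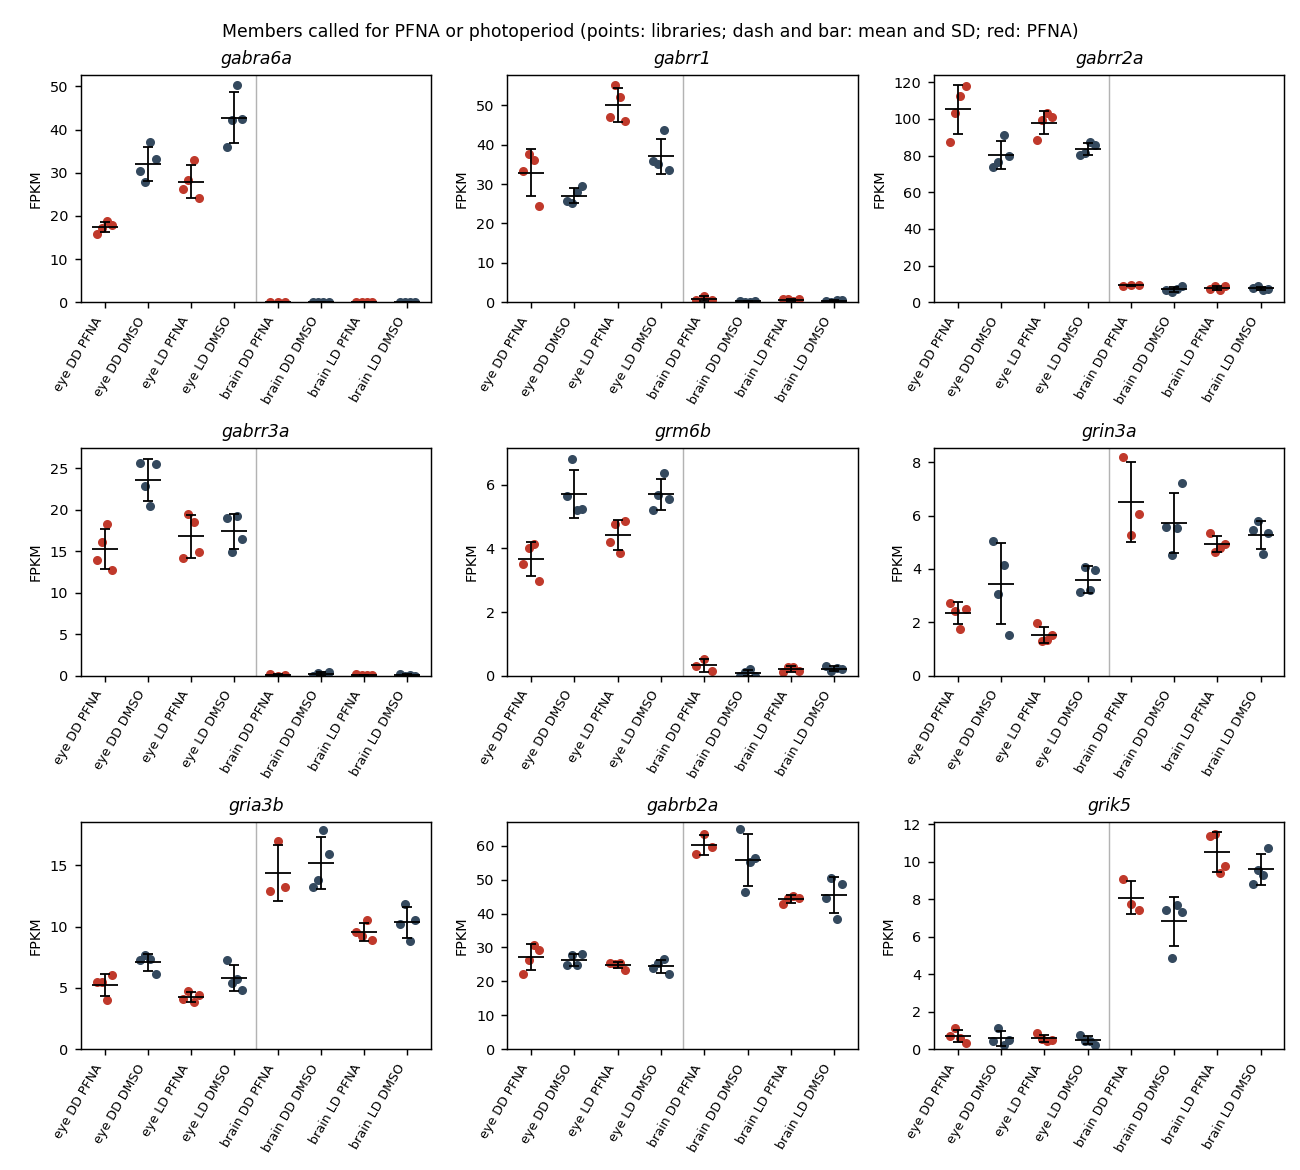
FPKM of 9 receptor genes in single libraries (points), with group mean and SD, for the 8 groups with PFNA in red and the left-out brain library not drawn. For gabra6a the eye groups are ordered DD PFNA lowest (15.9 to 18.8 FPKM), then LD PFNA, DD DMSO and LD DMSO highest (36.0 to 50.2 FPKM), and brains are near 0.

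Darkness was tested in the same way. Between DD and LD in unexposed eyes, 4 of 55 members were called, 1 higher and 3 lower in DD, or 7.27% beside 12.6% of all genes (6.22% higher and 6.34% lower). The gene gabra6a was lower in DD (30.5, 27.8, 37.0 and 33.1 FPKM, against 36, 42.3, 50.2 and 42.5 FPKM in LD, where 1 DD library lies above 1 LD library; -0.40, SE 0.12, adjusted p = 0.0410). The gene gabrr1 had 25.6, 25.2, 28.0 and 29.4 FPKM in DD, against 35.9, 35.1, 43.6 and 33.7 FPKM in LD, without overlap (-0.44, SE 0.13, adjusted p = 0.0347). The abundant gria3a had 244.2, 220, 243.6 and 229.6 FPKM in DD and 286, 275.5, 279.3 and 280.2 FPKM in LD (-0.26, SE 0.08, adjusted p = 0.0473). The gene gria2b was higher in DD, with 19.3, 22.4, 16.2 and 18.7 FPKM in DD and 16.2, 14.9, 14.4 and 13.6 FPKM in LD (0.35, SE 0.10, adjusted p = 0.0388). These calls lay near the threshold. Over the 23 settings the adjusted p reached 0.130 for gabra6a, 0.112 for gabrr1, 0.194 for gria3a and 0.114 for gria2b, and the call was lost in 10, 7, 18 and 6 of them. Single libraries that ended a call were DD DMSO replicates 1, 2 and 4, LD DMSO replicates 2, 3 and 4 and LD PFNA replicates 1 and 2 for gabra6a, DD DMSO and LD DMSO replicates 1, 2 and 3 for gabrr1, and DD DMSO replicates 1, 2 and 4 and LD DMSO replicates 2, 3 and 4 for gria2b. For gria3a each eye library did so except DD PFNA replicate 4. No direction changed.

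With PFNA present, 3 of 55 members were lower in DD than in LD eyes and none was higher, or 5.45% beside 16.1% of all genes (7.04% higher and 9.05% lower). The gene gabra6a had 15.9, 17.1, 18.8 and 17.9 FPKM in DD PFNA eyes and 26.3, 28.2, 33.0 and 24.1 FPKM in LD PFNA eyes (-0.64, SE 0.12, adjusted p = 0.00463), and its call held in all 23 settings. The gene gabrr1 had 33.4, 37.6, 36.1 and 24.3 FPKM in DD PFNA and 47.1, 55.0, 52.2 and 46.0 FPKM in LD PFNA (-0.61, SE 0.13, adjusted p = 0.00788). For grin2ab, a GluN2A copy, the values were 1.80, 1.86, 1.97 and 0.871 FPKM in DD PFNA and 3.12, 2.81, 3.17 and 3.98 FPKM in LD PFNA (-0.72, SE 0.19, adjusted p = 0.0237). The groups did not overlap for any of them. Without DD PFNA replicate 4, the lowest for grin2ab, its adjusted p was 0.0608 (-0.56), and without LD PFNA replicate 4 it was 0.0664.

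Set side by side, gabra6a averaged 17.4 ± 1.25 FPKM in DD PFNA eyes, 32.1 ± 3.93 FPKM in DD DMSO eyes, 27.9 ± 3.79 FPKM in LD PFNA eyes and 42.8 ± 5.83 FPKM in LD DMSO eyes (SD, n = 4 each). These 4 contrasts share groups and are not independent of one another. Its share of the summed alpha subunit level was 10.4%, 17.3%, 14.8% and 21.6% in the same order. The gene gabra4, chosen for mention after its values were seen, had its highest shares in exposed eyes, 16.9%, 10.7%, 20.2% and 13.5% in that order, with log2 differences for PFNA of 0.48 under DD (adjusted p = 0.0902) and 0.49 under LD (adjusted p = 0.0900), neither called. Whether the effect of PFNA depended on the photoperiod was tested as the difference of the effects under DD and LD. No member was called in eyes (limma; 3 members at an unadjusted p under 0.05; 0.137% of all genes called, 0.0549% higher and 0.0824% lower), and none with voom.

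Several lists of markers of retinal cell types moved in the same eyes. The summed level of 8 cone genes was 6006 to 8298 FPKM in DD PFNA eyes, 8169 to 9037 FPKM in DD DMSO eyes, 7235 to 9794 FPKM in LD PFNA eyes and 11412 to 14423 FPKM in LD DMSO eyes, and 4 of the 8 were lower in each of the 4 contrasts above, with 1 higher in all of these but PFNA against DMSO under DD. Of 7 rod genes 2 were lower with PFNA under DD and 3 under LD. The 7 bipolar cell genes summed to 296.3 to 414.8 FPKM in DD PFNA, 238.5 to 276.5 FPKM in DD DMSO, 307.4 to 400.0 FPKM in LD PFNA and 215.1 to 249.1 FPKM in LD DMSO eyes. Of the 6 bipolar genes tested, 1 was higher with PFNA under DD and 3 under LD, and none was lower. The 5 horizontal cell genes summed to 45.4 to 85.2 FPKM in DD PFNA, 97.2 to 114.2 FPKM in DD DMSO, 79.1 to 93.6 FPKM in LD PFNA and 113.6 to 127.6 FPKM in LD DMSO eyes. In brains they summed to 104.8 to 178.5 FPKM, so they do not mark the retina alone. The 7 Muller and radial glia genes summed to 1160 to 1631 FPKM in DD PFNA and 745.9 to 987.5 FPKM in DD DMSO eyes. Under LD they summed to 960.2 to 1097 FPKM with PFNA and 747.2 to 827.3 FPKM with DMSO, and in brains to 819.2 to 1672 FPKM. The 8 amacrine cell genes summed to 492.5 to 584.1 FPKM in DD PFNA and 538.6 to 606.0 FPKM in DD DMSO eyes. Under LD they summed to 443.6 to 497.7 FPKM with PFNA and 535.7 to 570.4 FPKM with DMSO. For the 8 ganglion cell genes the sums of PFNA and DMSO eyes overlapped under both photoperiods. None of these marker genes that the table held was at 0 in all eyes. The part of these shifts in the receptor calls was not tested. Exocrine pancreas genes, foreign to both tissues, summed to 34.95 to 167.9 FPKM in DD PFNA eyes, 55.3 to 250.6 FPKM in DD DMSO eyes, 18.3 to 48.1 FPKM in LD PFNA eyes and 14.1 to 78.3 FPKM in LD DMSO eyes, and 6 of 7 were higher in DD than in LD DMSO eyes. Their part was not tested either.

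In brains no receptor gene was called for PFNA. Under LD, 0 of 55 members passed (limma; 8 at an unadjusted p under 0.05; voom also 0), beside 7.9% of all genes (5.62% higher and 2.28% lower). Under DD, 0 of 55 passed (limma; 7 at an unadjusted p under 0.05; voom 1), beside 6.62% of all genes (4.82% higher and 1.8% lower). The lowest adjusted p in both belonged to gabbr1a, at 0.0931 under LD (0.27) and 0.0573 under DD (0.34). Under LD 39 of the 55 differences were positive and 16 negative, with a median of 0.056, beside 0.006 for all genes tested. Under DD 43 were positive and 12 negative, with a median of 0.107, beside 0.005 for all genes tested. Whether the members shifted as a set was not tested. The median standard error of a member's difference was 0.125 under LD and 0.135 under DD, and the differences of all 55 members lay between -0.34 and 0.45 under LD and between -0.21 and 0.58 under DD. The difference between these effects gave 0 called members (limma; 0 at an unadjusted p under 0.05; voom also 0), beside 0.00581% of all genes.

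In brains single receptor genes differed between the photoperiods. Between DD and LD without exposure, 2 of 55 members were called, 1 in each direction, or 3.64% beside 16.1% of all genes (6.39% higher and 9.68% lower). With PFNA 2 were called, both higher in DD, again 3.64%, beside 9.63% of all genes (3.66% higher and 5.97% lower). The gene gria3b, the less abundant GluA3 copy, had 13.2, 13.8, 17.9 and 15.9 FPKM in DD DMSO brains and 10.2, 11.9, 8.80 and 10.53 FPKM in LD DMSO brains (0.51, SE 0.12, adjusted p = 0.00992). With PFNA it had 12.9, 17.0 and 13.2 FPKM in DD and 9.54, 9.23, 10.6 and 8.91 FPKM in LD (0.54, SE 0.13, adjusted p = 0.0174). The groups did not overlap in either case. The gene grik5, for the GluK5 subunit, was lower in DD, with 7.43, 4.85, 7.68 and 7.33 FPKM in DD DMSO brains and 8.80, 9.59, 9.29 and 10.8 FPKM in LD DMSO brains (-0.45, SE 0.13, adjusted p = 0.0264). With PFNA gabrb2a, a beta subunit gene, had 57.5, 63.3 and 59.6 FPKM in DD and 42.8, 44.5, 45.2 and 44.6 FPKM in LD (0.43, SE 0.11, adjusted p = 0.0223), while without exposure DD and LD libraries overlapped for it, with 65.0, 46.3, 55.2 and 56.4 FPKM in DD and 44.6, 50.4, 38.3 and 48.7 FPKM in LD.

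Several of these calls in brains rest on single libraries. With the left-out library put back, none of the 4 held, with adjusted p of 0.230 and 0.564 for gria3b, 0.631 for grik5 and 0.452 for gabrb2a. That library has the eye pattern, so this setting cannot show whether the calls hold. In the DMSO contrasts it is in neither compared group and enters only the shared estimate of spread. The call of gria3b in DMSO brains held in 22 of 23 settings and was lost only with that library. In PFNA brains gria3b was lost without DD PFNA replicate 2 (0.0989), and gabrb2a without DD PFNA replicates 2 (0.0989) or 4 (0.0673) or LD PFNA replicates 1 (0.0558) or 2 (0.0528). In DMSO brains grik5 was lost without LD DMSO replicate 4 (0.0793), and without DD DMSO replicate 2, the lowest for it, it stood at -0.32 (0.0492) while the number of called members was 4. Exocrine pancreas genes summed to 46.8 to 318.3 FPKM in DD DMSO brains, against 9.60 to 24.9 FPKM in LD DMSO brains, 9.44 to 21.5 FPKM in DD PFNA brains and 7.27 to 25.5 FPKM in LD PFNA brains. All 6 tested were higher in DD than in LD DMSO brains. Their part in the results for DD DMSO brains was not tested.

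**Figure D5:**
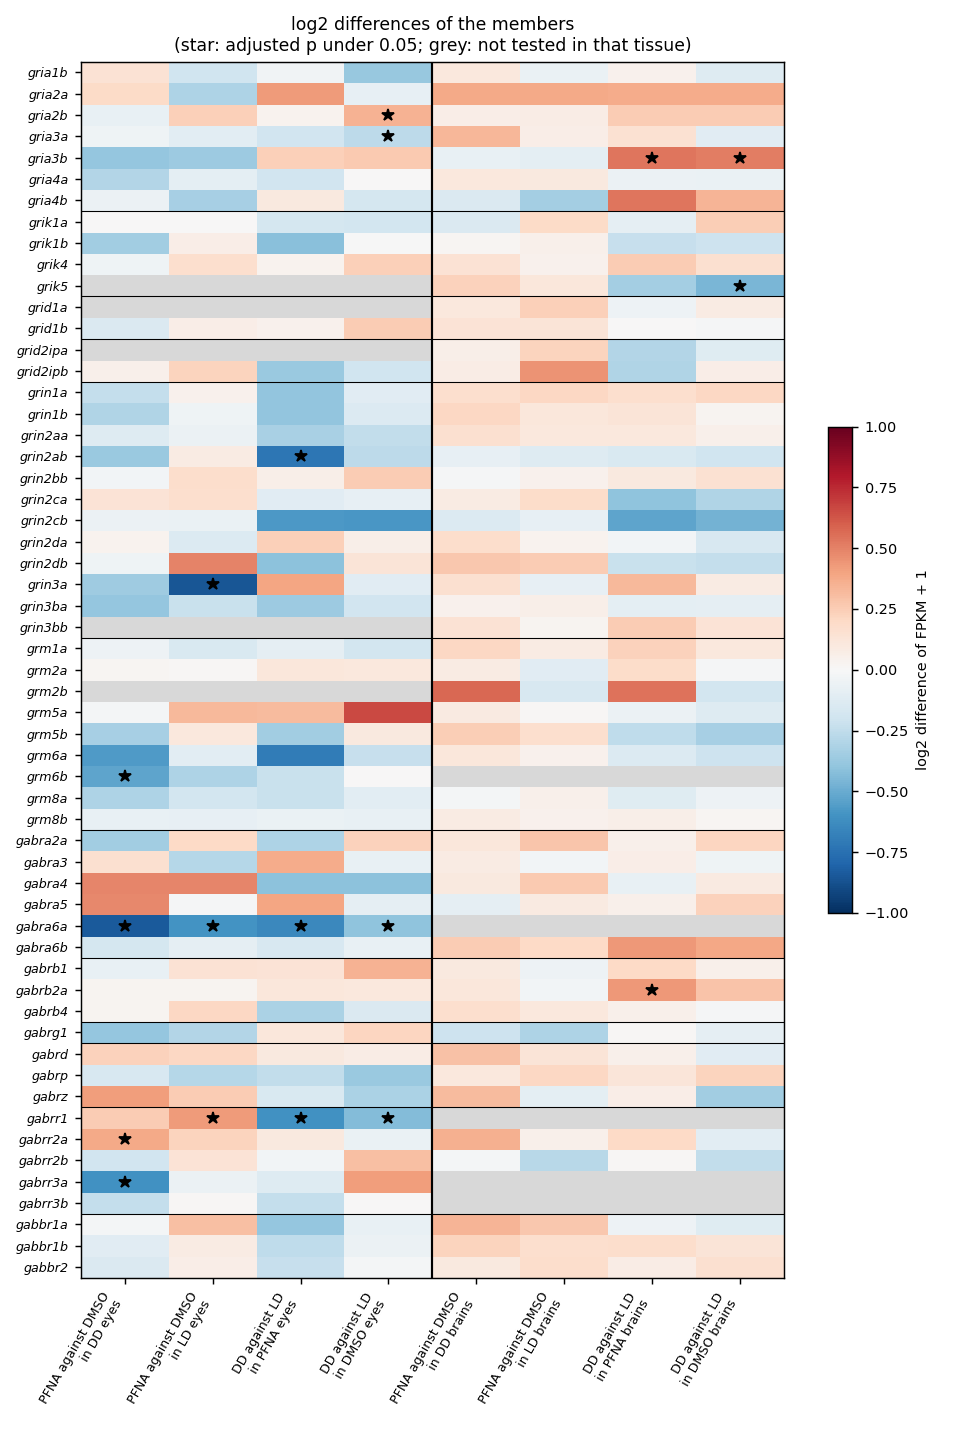
Log2 differences of the receptor genes in the 8 within-tissue contrasts of PFNA with DMSO and of DD with LD, on a scale between -1 and 1, with stars for called genes and grey for genes not tested in that tissue. The gene gabra6a carries a star in all 4 eye contrasts.

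Eyes and brains were also compared for their responses directly. For PFNA under DD, the effect differed between the tissues for 2 of 60 members, beside 1.07% of all genes (0.48% higher and 0.595% lower). These were gabra6a (-0.84, SE 0.15, adjusted p = 0.00419) and grm6b (-0.82, SE 0.18, adjusted p = 0.0160), both lower in eye than in brain. Both genes passed the level filter in eyes only, so both differences compare an eye gene with a brain level near 0. Neither difference was called with the left-out brain library, which has the eye pattern, put back. That of gabra6a was not called at a pseudocount of 0.1 (adjusted p = 0.267) or with voom (0.657). For grm6b, DD brains had 0.304, 0.527 and 0.135 FPKM with PFNA and 0.102, 0.197, 0 and 0.102 FPKM with DMSO. Its difference lay between -3.38 and -0.71 over the settings and was lost without brain DD PFNA replicate 2 (0.0725). Over all 60 members the tissue difference was negative for 49 and positive for 11, with a median of -0.26, beside -0.01 for all genes tested. A shift of the members as a set was not tested here either. For PFNA under LD none of the 60 was called (limma; 3 at an unadjusted p under 0.05; voom 0; 0.193% of all genes, 0.12% higher and 0.073% lower), and for DD against LD in DMSO none (limma; 8 at an unadjusted p under 0.05; voom 1; 0.647% of all genes, 0.355% higher and 0.292% lower).

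Genes that work beside the receptors were followed in 13 lists of 145 names, 135 of which are in the table: transmitter enzymes, transporters, auxiliary subunits and postsynaptic scaffolds. Of the listed genes tested in eyes, 15 were higher and 5 lower with PFNA under LD, 13 higher and 4 lower with PFNA under DD, 6 higher and 12 lower in DD with DMSO, and 9 higher and 19 lower in DD with PFNA. Of those tested in brains, 10 were higher and none lower with PFNA under LD, 12 higher and 1 lower with PFNA under DD, 8 higher and 15 lower in DD with DMSO, and 5 higher and 7 lower in DD with PFNA. As shares these were 16.3%, 13.8%, 14.6% and 22.8% in eyes and 9.17%, 11.9%, 21.1% and 11% in brains, beside the backgrounds given above.

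Glutamine synthetase, encoded by glula and used by glia to clear glutamate, was higher with PFNA in all 4 contrasts, by 0.68 in DD eyes (adjusted p = 0.00277), 0.71 in LD eyes (0.00198), 0.80 in DD brains (0.00859) and 0.92 in LD brains (0.0019). It was also higher in DD in all 4 contrasts, by between 0.44 and 0.88. The GABA transaminase gene abat was higher in 7 of the 8 contrasts, by 0.71 with PFNA in DD eyes and 0.83 in DD against LD PFNA eyes, for example. Of the glutaminase genes, glsa was higher with PFNA in DD eyes (0.78, adjusted p = 7.15e-05). Among auxiliary subunits of AMPA receptors, cacng2b, a stargazin gene, was higher with PFNA in all 4 contrasts (0.71 in DD eyes, 0.72 in LD eyes, 0.57 in DD brains and 0.46 in LD brains). On the inhibitory side arhgef9a, for collybistin, which anchors gephyrin, was higher in the same 4 (0.60, 0.76, 0.70 and 0.72).

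Other partners were lower in darkness. The AMPA auxiliary subunit gene shisa6 was lower in DD in all 4 contrasts (-0.98 in DMSO eyes, -1.13 in PFNA eyes, -1.12 in DMSO brains and -1.17 in PFNA brains), and so was the scaffold gene dlgap1a (-0.53, -0.65, -0.55 and -0.54). In brains syngap1a, a synaptic Ras regulator, was lower in DD by -0.81 with DMSO and -0.74 with PFNA, and the glial glutamate transporter gene slc1a2b by -0.65 in both. In eyes the vesicular GABA transporter gene slc32a1 was lower in DD (-0.58 with DMSO and -0.64 with PFNA). The glutamate transporter gene slc1a8b was higher with PFNA in DD eyes (1.48, adjusted p = 1.97e-06) and in LD eyes (0.68), and the vesicular glutamate transporter gene slc17a7a was higher with PFNA in LD eyes (1.08, adjusted p = 0.0166). The GABA-B auxiliary subunit gene kctd12b was lower with PFNA in DD eyes (-0.99, adjusted p = 0.000311). None of the 4 GABA uptake transporter genes tested was called in any of these 8 contrasts. Of the receptor genes outside the name pattern, GRIN2B (1 of many) was lower in DD brains, by -0.79 with DMSO (adjusted p = 0.000819) and -0.80 with PFNA (0.00242), and grm4 was lower in DD in PFNA eyes (-0.55, adjusted p = 0.00463) and lower with PFNA in DD eyes (-0.39, adjusted p = 0.0241).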

How the data were processed

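The authors deposited a table of gene FPKM values for 32 libraries. Per the submitters' processing notes, HISAT2 2.0.5 and featureCounts 1.5.0-p3 were among the tools used; the genome build is not given in the sources used here. Values were used as deposited and tested as log2(FPKM + 1), so that differences of low genes are understated. The authors' table also holds 2 columns of group values, a signal on a far larger scale whose making is not stated as deposited; these were not used. limma 3.58.1 (R 4.3.3; 1 mean per group, eBayes with trend) was fitted to 16 eye libraries (18204 genes), 15 brain libraries (17216 genes) and all 31 (19170 genes), each with genes at 1 FPKM or more in at least 4 libraries. P-values are two-sided and adjusted over all genes tested, with 0.05 as threshold. Whole fragments could be recovered from the FPKM steps (100% of values whole within 0.05 of a fragment) and served an alternative with voom. At 1 kilobase of length, 1 FPKM stands for 8.45 to 17.0 fragments. The fits were checked on simulated data.

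Members and gene lists were chosen with earlier results of these data known. Genes named are those called (up to 12 per direction and contrast), the most abundant member of each family per tissue and a fixed set of well-known subunits, 41 of 60 in all; the others are given with their families. Some of these genes are counted but their results are not reported here. Alternatives were another pseudocount, no level filter, median-ratio and quantile scaling, the replicate number as a block, voom, only the compared groups, each library left out, and the left-out brain library put back. In no contrast did every same-numbered pair of libraries correlate above 0.1, so the numbers were not taken to pair libraries. Between LD DMSO eyes and brains all 4 pairs correlated positively, at 0.0780 to 0.142.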

Additional observations from a re-analysis of the deposited data

Results flagged for a closer look

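Of 241 sets of 4 libraries of one group with a mean of at least 1 FPKM, 12 held a library set apart from the other 3 by Dixon's test at its 95% critical value; chance gives about 1 in 20. In eye DD PFNA replicate 4 stood low for grik1b (20.7 FPKM, others 37.1 to 38.5), grin1a (71.6, others 129.7 to 134.7), grin2ab (0.871, others 1.80 to 1.97) and grm6a (3.94, others 11.3 to 12.7). Eye LD PFNA replicate 4 was low for gabrb2a (23.5 FPKM, others 25.2 to 25.5) and grm6a (13.4, others 15.9 to 16.3). Eye DD DMSO replicate 1 was high for gabrg1 (5.16 FPKM, others 4.21 to 4.24), eye DD DMSO replicate 2 for grm5a (2.15, others 0.696 to 0.935) and eye LD DMSO replicate 1 for grik1a (48.1, others 36.1 to 37.9). In brains, DD DMSO replicate 2 was low for gabrb4 (100.28 FPKM, others 128.3 to 131.8) and grik5 (4.85, others 7.33 to 7.68), and DD DMSO replicate 1 was high for grin2ab (1.84, others 1.53 to 1.54).

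The effect of PFNA under DD differed between eye and brain for gabra6a (difference of the log2 effects -0.84, lower in eye) and grm6b (-0.82, lower in eye), by the test of the difference itself. Both genes passed the level filter in eyes only, so each difference sets an eye effect against a brain level near 0. For gabra6a the difference was not called at a pseudocount of 0.1 or with voom. That of grm6b was lost without brain DD PFNA replicate 2, and both were lost with brain DD PFNA replicate 3 put back. The library labelled brain DD PFNA replicate 3, outside the comparisons, exceeded the highest other brain library for 16 members.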

How the results depend on the processing

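None of the 19 calls for exposure and photoperiod within a tissue changed direction under an alternative, and 4 stayed past the threshold in all: gabra6a in the contrasts of PFNA with DMSO in LD eyes, PFNA with DMSO in DD eyes and DD with LD in PFNA eyes, and gabrr3a for PFNA in DD eyes. Of 38 named eye against brain calls 34 did; gabbr1a, grid2ipb, grin1a and grin3a did not. The number of called members moved by over 1.5 times in these cases, the cause of which was not tested unless the setting has fewer samples. With only the 2 compared groups it was 6 for PFNA in LD eyes, 2 for PFNA in DD eyes, 1 for DD in PFNA eyes, 1 for DD in DMSO brains and 7 for DD in PFNA brains. Without the level filter it was 2 for DD in DMSO eyes. With voom it was 8 and 5 for DD in DMSO and PFNA eyes, 1 for PFNA in DD brains, 4 for DD in PFNA brains, and 1 each for the eye minus brain difference of the DD effect in DMSO and of the PFNA effect in DD. With the replicate block it was 1 each for PFNA in DD brains and DD in PFNA brains. Same-numbered libraries correlated at 0.0780 to 0.142 between LD DMSO eyes and brains, where 4 of 4 fitted best with their own number, a hint from the data only, and the block gave 17 higher and 35 lower there. For DD in DMSO brains, median-ratio scaling gave 4 and quantile scaling 6; for DD in PFNA brains quantile scaling gave 5. With brain DD PFNA replicate 3 it was 0 for DD in DMSO and in PFNA brains and 0 for the tissue difference of the PFNA effect in DD, which was 1 at a pseudocount of 0.1. Leaving out single libraries gave 1 to 5 members for PFNA in LD eyes, 3 to 8 for PFNA in DD eyes, 0 to 8 and 2 to 6 for DD in DMSO and PFNA eyes, 0 to 1 and 0 to 4 for PFNA in LD and DD brains, 1 to 6 and 0 to 4 for DD in DMSO and PFNA brains, 48 to 54 for eye against brain, 0 to 1 and 1 to 3 for the tissue difference of the PFNA effect in LD and DD, and 0 for that of the DD effect and both interactions. Depth limits the lowest members: at a mean of 0.0477 FPKM, as for gabra6a in LD DMSO brains, a library holds few fragments. Putting the receptor genes outside the name pattern into the sums, an alternative chosen after seeing the data, lowered the share of grik4 in brains to 17.0% and that of grik5 to 6.78%.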
